A study of Mus musculus with 6 samples.

Results

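Trabecular meshwork and outflow genes are 8 genes that mark the cells through which aqueous humour leaves the eye or that carry variants in human disease of that outflow. They were taken by name, as Myoc, Angptl7, Cyp1b1, Ltbp2, Mgp, Chil1, Tnmd and Edn3, out of 57180 gene identifiers, and all 8 were found and passed the filter on low counts, as did 17639 genes in all. They were followed here in RNA-seq of corneal endothelial cells, the innermost layer of the cornea, whose edge borders the meshwork. The libraries labelled Col8a2Q455K/Q455K/Tcf4+/- (n = 3, called Tcf4+/-) are from mice labelled as heterozygous knockouts of Tcf4, whose product is a transcription factor of the E protein family. They were set against libraries labelled Col8a2Q455K/Q455K (n = 3, called Col8a2). Both groups were homozygous for a mutant Col8a2, a collagen chain of Descemet membrane, as a model of Fuchs endothelial corneal dystrophy, and no wild-type library is part of the comparison. The labels give no age, sex or strain, do not say in which cells Tcf4 was knocked out, and do not state how many animals or corneas went into a library. The tests therefore rest on the spread between libraries, part of which may be technical.

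The trabecular meshwork is a sieve of matrix beams covered by cells, set in the angle between cornea and iris, and aqueous humour passes through it into Schlemm canal. Its cells share a neural crest origin with the corneal endothelium and secrete matrix and matrix-binding proteins. Myocilin, the product of Myoc, is a secreted glycoprotein whose human variants cause open-angle glaucoma, and CYP1B1 and LTBP2 variants cause congenital glaucoma in humans. Angptl7 encodes a secreted protein of meshwork and cornea, Mgp an inhibitor of calcification that depends on vitamin K, Chil1 a secreted chitinase-like lectin, Tnmd the tendon membrane protein tenomodulin and Edn3 the peptide ligand endothelin 3. The files identify them as ENSMUSG00000026697 (Myoc, chromosome 1), ENSMUSG00000028989 (Angptl7, chromosome 4), ENSMUSG00000024087 (Cyp1b1, chromosome 17), ENSMUSG00000002020 (Ltbp2, chromosome 12), ENSMUSG00000030218 (Mgp, chromosome 6), ENSMUSG00000064246 (Chil1, chromosome 1), ENSMUSG00000031250 (Tnmd, chromosome X) and ENSMUSG00000027524 (Edn3, chromosome 2), all protein-coding genes.

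Total estimated counts ran from 30344161 to 54265479 in the Tcf4+/- libraries and from 46644739 to 51302379 in the Col8a2 libraries. Tcf4 stood at 440, 599 and 373 CPM in the Tcf4+/- libraries and at 313, 470 and 430 CPM in the Col8a2 libraries, where CPM is the estimated count scaled to library depth with TMM factors. The targeted gene was thus not lower in the libraries labelled for its knockout (edgeR log2 fold change 0.22, standard error 0.33), and the groups are named by label only. Corneal endothelium markers were present in every library, with none of the 18 at 0, and their mean log2 level was 9.14, 9.46 and 8.12 in the Tcf4+/- libraries and 8.81, 9.22 and 9.30 in the Col8a2 libraries. Tcf4+/- replicate 3 was the lowest in this list and the shallowest library.

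Promoters are shown for Edn3, the only one of the 8 genes whose groups did not overlap in CPM, and for Myoc and Chil1, which varied together. Of all genes tested, 8.1% had no overlap in CPM, 4.53% with the Tcf4+/- libraries higher. Angptl7 is shown for CACCTG, 1 of the E-box forms that E proteins bind. Each window runs from 250 bases before to 50 bases after the start of the gene, in RefSeq on build GRCm38.p6, and is written along the strand of the gene. Capitals mark E-boxes, CANNTG, the motif of basic helix-loop-helix factors such as Tcf4.
Edn3 (chr2:174760369-174760668, plus strand): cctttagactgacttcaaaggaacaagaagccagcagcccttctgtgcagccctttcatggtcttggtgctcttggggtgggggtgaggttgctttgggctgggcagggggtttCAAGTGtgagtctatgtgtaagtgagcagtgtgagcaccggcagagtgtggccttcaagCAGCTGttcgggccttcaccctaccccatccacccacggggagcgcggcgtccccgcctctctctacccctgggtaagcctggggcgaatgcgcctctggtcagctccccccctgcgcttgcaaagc
Myoc (chr1:162638900-162639199, plus strand): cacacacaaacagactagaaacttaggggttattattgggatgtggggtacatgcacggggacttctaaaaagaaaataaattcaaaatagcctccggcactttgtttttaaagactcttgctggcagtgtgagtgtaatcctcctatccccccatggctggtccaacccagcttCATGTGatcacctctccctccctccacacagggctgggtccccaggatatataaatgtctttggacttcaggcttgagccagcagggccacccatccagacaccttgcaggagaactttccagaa
Chil1 (chr1:134181906-134182205, plus strand): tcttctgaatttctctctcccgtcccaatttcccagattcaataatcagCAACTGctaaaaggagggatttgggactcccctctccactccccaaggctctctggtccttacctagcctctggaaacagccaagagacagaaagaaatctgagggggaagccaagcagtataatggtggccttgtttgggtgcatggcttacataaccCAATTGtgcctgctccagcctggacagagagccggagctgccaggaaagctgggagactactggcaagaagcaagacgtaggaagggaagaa
Angptl7 (chr4:148500413-148500712, minus strand): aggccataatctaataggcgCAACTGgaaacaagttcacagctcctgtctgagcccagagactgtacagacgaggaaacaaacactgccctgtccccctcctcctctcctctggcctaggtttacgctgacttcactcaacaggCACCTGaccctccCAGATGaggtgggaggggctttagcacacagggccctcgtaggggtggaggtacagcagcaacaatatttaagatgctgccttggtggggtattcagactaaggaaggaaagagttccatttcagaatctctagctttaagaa
RefSeq windows were matched for 7 of the 8 genes, the other being Mgp. An E-box, searched on both strands, was present in 5 of the 7 windows, and 72.3% of 32851 RefSeq promoter windows of the same length hold one. The form CACCTG, which reads CAGGTG on the other strand and is one of the E-boxes, was present in 2 of the 7, Angptl7 and Ltbp2, against 20.2% of all windows. In Angptl7 it begins 106 bases before the start, and in Ltbp2 223 bases before it. The core of the aryl hydrocarbon receptor site, GCGTG or CACGC, was present in Cyp1b1 and Ltbp2, against 32.4% of all windows, and the glucocorticoid receptor half-site AGAACA or TGTTCT in none of the 7, against 19.0% of all. TATAAA or TTTATA was present in 1 of the 7, Myoc, where it begins 26 bases before the start, against 13.6% of all. A match of letters is a description of the window and not a bound site.

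No trabecular meshwork or outflow gene passed the genotype test. With edgeR's quasi-likelihood test and Benjamini-Hochberg adjustment over 17639 genes, 0 of the 8 were called, as were 0.0% of all genes, and each of the 8 had an adjusted p of 0.999877. Of the 8, 5 were fitted higher in the Tcf4+/- group (Tnmd, Myoc, Edn3, Mgp and Chil1) and 3 lower (Angptl7, Cyp1b1 and Ltbp2), and 50.1% of all genes were fitted higher. The median log2 fold change of the 8 was 0.83, beside 0.0011 over all genes tested. It varied with single libraries, at 0.36 without Tcf4+/- replicate 2, 0.40 without Col8a2 replicate 3 and 0.48 without Tcf4+/- replicate 3. It was 0.75 without Col8a2 replicate 1, 1.12 without Tcf4+/- replicate 1 and 1.19 without Col8a2 replicate 2. Without both Tcf4+/- replicates 2 and 3 it was -0.46. At an unadjusted p of 0.05, 1 of the 8 lay below it, Edn3, in a comparison where 1.42% of all genes did so on the higher side and 1.0% on the lower side, or 2.42% in either direction. DESeq2 called 0 of the 8 and 0.513% of the genes it tested, and limma voom called 0 of the 8 and 0.0% of all.

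**Figure D1:**
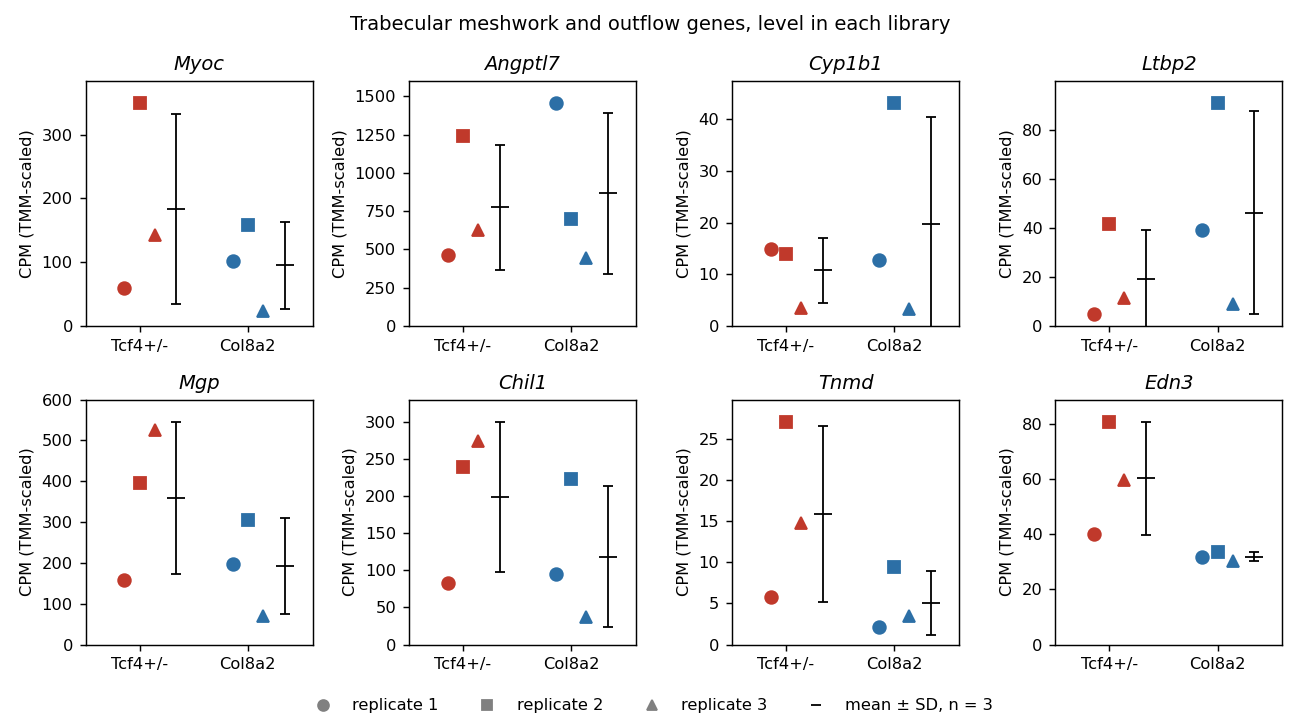
Level of each of the 8 genes in CPM (TMM-scaled, linear axis from 0) in every library, with the 3 Tcf4+/- libraries left and the 3 Col8a2 libraries right in each panel, and black bars for mean ± SD (n = 3), cut at 0 where the SD is larger than the mean. Edn3 is the gene whose Tcf4+/- libraries, 40.1 to 80.7 CPM, all lie above the Col8a2 libraries, 30.4 to 33.6 CPM. Of all genes tested, 4.53% show that pattern in this direction.

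Mgp, Angptl7 and Chil1 were the most abundant of the 8 per unit of gene length, with mean levels over the 6 libraries of 659.8 TPM, 438 TPM and 179.8 TPM. By mean TPM over the 6 libraries they ranked 172, 287 and 688 among the 27604 genes with a value above 0. Myoc followed with a mean level of 77.6 TPM, Edn3 with 16.8 TPM, Tnmd with 9.22 TPM, Ltbp2 with 5.75 TPM and Cyp1b1 with 5.17 TPM. No pair of neighbours in this order had TPM ranges that were apart over the 6 libraries. Within single libraries, Chil1 was above Myoc, Myoc above Edn3 and Edn3 above Tnmd in 6 of 6. Mgp was above Angptl7 in 4 of 6, Angptl7 above Chil1 in 5 of 6, Tnmd above Ltbp2 in 4 of 6 and Ltbp2 above Cyp1b1 in 5 of 6, so these neighbours changed places between libraries.

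Edn3, the ligand among the 8, was the only gene whose libraries did not overlap between groups. Its level was 40.1, 80.7 and 59.7 CPM in the Tcf4+/- libraries and 31.6, 33.6 and 30.4 CPM in the Col8a2 libraries. Every Tcf4+/- library lay above every Col8a2 library, a pattern that 4.53% of all genes tested showed in this direction and 3.57% in the other, 8.1% in all. The Col8a2 libraries were close together, with a highest value only 1.104-fold above the lowest, while the Tcf4+/- libraries spread over 2.01-fold. The fitted log2 fold change of Edn3 was 0.92 (standard error 0.32; 95% interval 0.20 to 1.63), a fold of 1.89, with an adjusted p of 0.999877 in edgeR's quasi-likelihood test with Benjamini-Hochberg adjustment. Its adjusted p-values over 16 other settings went no lower than 0.464, from DESeq2. In the TPM values that the authors deposited, Edn3 stood at 14.7, 31.1 and 16.7 TPM in the Tcf4+/- libraries and 11.4, 15.2 and 11.5 TPM in the Col8a2 libraries, so there Tcf4+/- replicate 1 lay below Col8a2 replicate 2 and the groups overlapped. Without both Tcf4+/- replicates 2 and 3 the log2 fold change was 0.32.

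Markers of other tissues were also higher in some of the Tcf4+/- libraries. All 11 lens markers tested, of 13 listed, were fitted higher, and their summed level was 91.2 to 11170 CPM in the Tcf4+/- libraries and 33.9 to 628 CPM in the Col8a2 libraries. The lens level was high in replicates 2 and 3 of Tcf4+/-, the pair in which Edn3 was highest, and low in replicate 1. All 10 retina markers were fitted higher, with none at 0 and a summed level of 2464 to 10539 CPM in the Tcf4+/- libraries and 2487 to 3522 CPM in the Col8a2 libraries. All 5 erythroid markers were fitted higher, with none at 0 and a summed level of 1362 to 6127 CPM in the Tcf4+/- libraries and 531 to 1967 CPM in the Col8a2 libraries. Of 13 markers of Schlemm canal and vascular endothelium 12 were fitted higher, with none at 0 and none called by edgeR. The summed level of the 13 was 405 to 2013 CPM in the Tcf4+/- libraries and 837 to 1736 CPM in the Col8a2 libraries, most of it from Npnt, the one fitted lower. The 12 others summed to 121, 339 and 142 CPM in the Tcf4+/- libraries and to 134, 149.8 and 52.3 CPM in the Col8a2 libraries. Of these 12, DESeq2 called 1. Other marker lists were fitted mostly lower. These were corneal endothelium (14 of 18 lower), corneal epithelium (6 of 10), ciliary body epithelium (5 of 9) and dividing cells (all 6 tested). The lists of keratocytes, smooth muscle and pericytes, pigment cells, immune cells and Schwann cells had more markers fitted higher than lower. The part of these tissues in the Edn3 difference was not tested. In bulk RNA, fewer cells of a type and less RNA per cell cannot be told apart.

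The endothelin pathway was read from a list of 7 genes, which holds the ligands Edn1 and Edn2 besides receptors and peptidases. All 7 were tested, and edgeR and DESeq2 called 0 in either direction. Of the 7, 3 were fitted higher and 4 lower, with a median log2 fold change of -0.52. Ednrb, the receptor that binds endothelin 3 best, was at 615, 645 and 122 CPM in the Tcf4+/- libraries and at 661, 759 and 702 CPM in the Col8a2 libraries. Every Tcf4+/- library lay below every Col8a2 library, a pattern that 3.57% of all genes tested showed in this direction. Replicates 1 and 2 lay close to the Col8a2 range and replicate 3 far below it. The log2 fold change of Ednrb was -0.62 with a standard error of 0.54. Replicate 3 was also the library with the lowest level of corneal endothelium markers, whose part in the low Ednrb value was not tested. Ednra, the other receptor, was low throughout, at 3.45, 17.4 and 4.62 CPM in the Tcf4+/- libraries and 1.38, 2.52 and 5.37 CPM in the Col8a2 libraries. Ece1, the enzyme that cleaves endothelin precursors, averaged 90.1 ± 32.5 CPM in the Tcf4+/- group and 81.2 ± 16.3 CPM in the Col8a2 group (SD, n = 3 each). Mme, a peptidase that degrades small peptides and the only gene of the list with an unadjusted p under 0.05 in edgeR, was at 41.9 to 53.3 CPM in the Tcf4+/- libraries and 18.1 to 39.7 CPM in the Col8a2 libraries. It was named after its values were seen.

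Tnmd had the largest fitted difference of the 8 genes and a low level. It stood at 5.74, 27.1 and 14.8 CPM in the Tcf4+/- libraries and at 2.10, 9.45 and 3.52 CPM in the Col8a2 libraries. Tcf4+/- replicate 1 lay below Col8a2 replicate 2, so the groups overlapped. Its log2 fold change of 1.66 had a standard error of 0.75, and its 95% interval ran from -0.02 to 3.33. Leaving out each library in turn gave 1.05 to 2.50, with the lowest without Tcf4+/- replicate 2 and the highest without Col8a2 replicate 2. Among 12 genes of tendon and cartilage, which include regulators and matrix of the tissues where tenomodulin is best known, edgeR tested 11 and called 0, and DESeq2 called 0, with a median log2 fold change of 0.20. Col12a1, a collagen that coats fibrils, averaged 2317 ± 1208 CPM in the Tcf4+/- group and 2363 ± 518 CPM in the Col8a2 group, and Kera, the stromal proteoglycan keratocan, 677 ± 124 CPM and 630 ± 397 CPM in the same order (SD, n = 3 each).

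**Figure D2:**
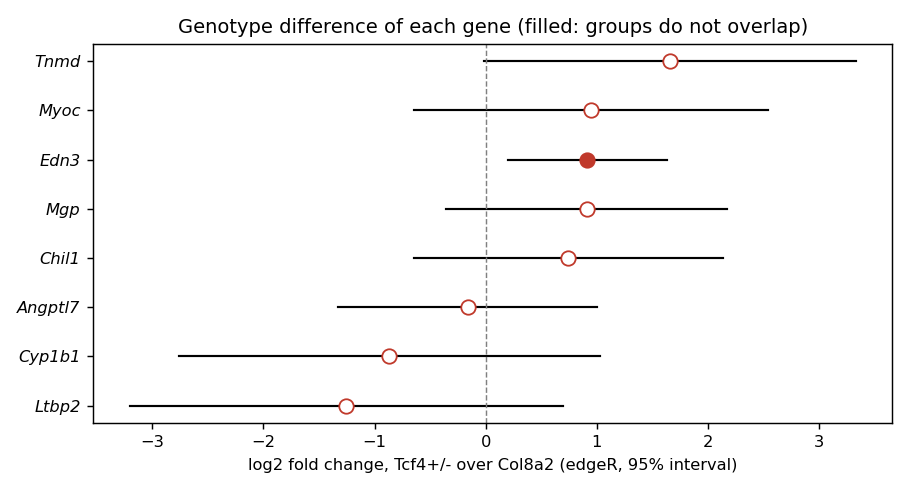
Fitted log2 fold change of each of the 8 genes, Tcf4+/- over Col8a2, with its 95% interval from edgeR, ordered from highest at the top to lowest. The interval of Edn3, from 0.20 to 1.63, is the only one that leaves out 0, and that of Tnmd reaches down to -0.02.

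Myoc, Mgp and Chil1 each averaged higher in the Tcf4+/- group, with libraries that overlapped between groups. Myoc stood at 60.3, 349 and 142 CPM in the Tcf4+/- libraries and at 102, 159 and 24.2 CPM in the Col8a2 libraries. The values of the groups were interleaved, with the highest library in the Tcf4+/- group and the lowest in the Col8a2 group. The log2 fold change of Myoc was 0.95 with a standard error of 0.71, and it was 0.11 without Tcf4+/- replicate 2, 0.49 without Col8a2 replicate 3 and 1.54 without Col8a2 replicate 2. Mgp stood at 158, 395 and 525 CPM in the Tcf4+/- libraries and at 198, 305 and 70.8 CPM in the Col8a2 libraries. Chil1 stood at 83.7, 239 and 275 CPM in the Tcf4+/- libraries and at 94.9, 224 and 37.3 CPM in the Col8a2 libraries. In both, Tcf4+/- replicate 1 was below 2 of the 3 Col8a2 libraries. The log2 fold changes were 0.91 with a standard error of 0.56 for Mgp and 0.75 with a standard error of 0.62 for Chil1. Without Col8a2 replicate 2 they were 1.42 and 1.595, and without Col8a2 replicate 3 they were 0.51 and 0.32.

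Angptl7, Cyp1b1 and Ltbp2 averaged lower in the Tcf4+/- group, again within the spread. Angptl7 stood at 463, 1239 and 624 CPM in the Tcf4+/- libraries and at 1455, 698 and 447 CPM in the Col8a2 libraries. The groups covered almost the same range, and the log2 fold change was -0.16 (95% interval -1.32 to 1.004). Without Col8a2 replicate 1 it was 0.43 and without Tcf4+/- replicate 1 it was 0.10. Cyp1b1, a cytochrome P450 enzyme, stood at 15.0, 13.8 and 3.58 CPM in the Tcf4+/- libraries and at 12.9, 43.1 and 3.28 CPM in the Col8a2 libraries. Only Col8a2 replicate 2 exceeded the range of the Tcf4+/- libraries by a wide margin, and the log2 fold change of -0.87 became 0.42 without it. Ltbp2, which binds elastic microfibrils, stood at 4.83, 41.8 and 11.5 CPM in the Tcf4+/- libraries and at 39.2, 90.9 and 8.85 CPM in the Col8a2 libraries. Its log2 fold change was -1.26 with a standard error of 0.87. Leaving out each library in turn gave values for Ltbp2 from -2.485 to -0.31, the first without Tcf4+/- replicate 2 and the second without Col8a2 replicate 2.

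Reads of neighbouring genes could enter some of these counts, since the library kit is not described as keeping the strand. In the GENCODE M21 annotation, Angptl7 lies inside Mtor on the opposite strand and shares no exonic bases with it. Mtor stood at 44.8, 37.2 and 19.5 CPM in the Tcf4+/- libraries and at 51.3, 83.3 and 36.7 CPM in the Col8a2 libraries, well below Angptl7 in each. Of the 2074 exonic bases of Myoc, 93 are shared with Myocos on the other strand, and of the 8184 of Ltbp2, 764 are shared with the antisense gene D030025P21Rik. The counts assigned to these overlapping genes summed to 30.01 and 244 over all libraries. Cyp1b1, Mgp, Chil1, Tnmd and Edn3 overlap no annotated gene.

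The 8 genes differed between libraries of the same group more than most genes. The highest library of a group exceeded the lowest by a median of 3.76-fold over the 8 genes in the Tcf4+/- group and 5.25-fold in the Col8a2 group. Over the 10057 genes tested with a mean of at least 10 CPM, this median was 1.76-fold and 1.69-fold in the same order. Ltbp2, the widest in the Tcf4+/- group, ranged over 8.65-fold there, and Cyp1b1, the widest in the Col8a2 group, over 13.1-fold. Edn3 was the exception in the Col8a2 group, where only 2.94% of those genes had a narrower range. The biological coefficient of variation that edgeR fitted was 0.562 at the median of the 8 genes and 0.362 at the median of those genes, and it was 0.708 for Ltbp2 and 0.311 for Edn3.

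The 8 genes tended to be high or low in the same libraries. Their mean log2 level, on the log2(CPM + 0.5) scale, was 5.35, 6.95 and 6.13 in the Tcf4+/- libraries and 5.85, 6.65 and 4.62 in the Col8a2 libraries, with Tcf4+/- replicate 2 the highest and Col8a2 replicate 3 the lowest. Col8a2 replicate 3 was the lowest library for 6 of the 8 genes, all but Ltbp2 and Tnmd. Of the 28 pairs among the 8 genes, 27 had a positive Pearson r over the 6 libraries. The mean r was 0.52, beside a mean of 0.010 over all pairs of the 10057 genes of at least 10 CPM. With 1 library removed the mean r ran from 0.34, without Col8a2 replicate 3, to 0.64, without Col8a2 replicate 1. In deviations from the group means over all 6 libraries it was 0.64. A correlation within 1 group of 3 libraries is not given.

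Mgp and Chil1 were the closest pair, with r = 0.98 and Spearman rho = 1 over the 6 libraries. Each had an exact permutation p of 0.00278, the smallest that 720 orders can give in a two-sided test, and an adjusted p of 0.0778 over the 28 pairs. Without the 2 libraries farthest from the median of Mgp, r was 0.97. Myoc followed both, with r = 0.91 and rho = 0.83 with Chil1 (exact permutation p = 0.0167 and 0.0583, adjusted p = 0.175 and 0.288) and r = 0.90 and rho = 0.83 with Mgp (exact permutation p = 0.025 and 0.0583, adjusted p = 0.175 and 0.288). Without the 2 libraries farthest from the median of Myoc, r was 0.88 with Chil1 and 0.81 with Mgp. Tnmd and Edn3 had r = 0.89 and rho = 0.89 (exact permutation p = 0.0222 and 0.0333, adjusted p = 0.175 and 0.288), and r was 0.79 without the 2 libraries farthest from the median of Tnmd. These 4 pairs were the only ones with r of at least 0.8 or an unadjusted p of r under 0.05, and 0 of 28 passed after adjustment. Cyp1b1 was the least tied to the rest, with a mean r of 0.29 with the other 7, and its r of -0.12 with Edn3 was the one negative Pearson value.

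**Figure D3:**
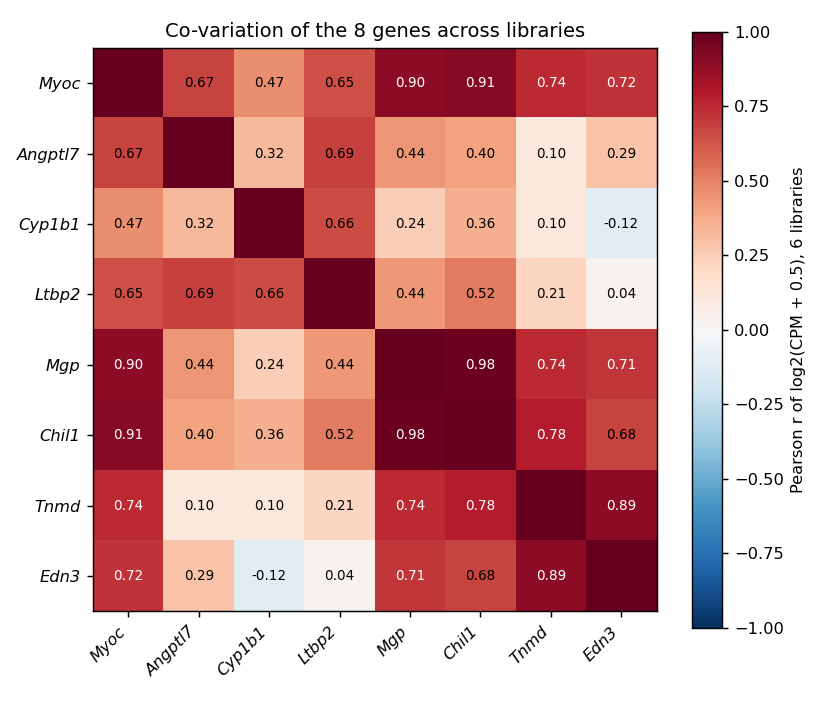
Pearson r of log2(CPM + 0.5) over the 6 libraries for each pair of the 8 genes, from blue at -1 to red at 1. Myoc, Mgp and Chil1 form the darkest block, with r from 0.90 to 0.98, and Cyp1b1 has the palest row.

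Genes with the most similar patterns were taken by r over the 6 libraries from the 10057 genes of at least 10 CPM. The mean pattern of the 8 genes was matched best by Olfml2a, an olfactomedin-like matrix gene, with r = 0.99, and by Islr, B2m, Mdk and Emb with r from 0.98 to 0.99. For Myoc the closest were Emb, which encodes embigin, a partner of monocarboxylate transporters, and the tetraspanin gene Cd9, both with r = 0.99. For Chil1 they were Tgfb3, a transforming growth factor beta ligand, and Calcrl, a calcitonin family receptor, with r of 0.996 and 0.993. For Mgp they were Tle3, a co-repressor, and Chad, which encodes the cartilage protein chondroadherin, both with r = 0.99. For Edn3 they were Colgalt2, a collagen galactosyltransferase, with r = 0.99 and Ltbp4, a relative of Ltbp2, with r = 0.98. Nfat5 was among the closest to Tnmd. For Angptl7 they were Smc5 and A2m, for Ltbp2 Tmem87a and Dpp7, and for Cyp1b1 B3glct and Angel2, and r of these genes ran from 0.972 to 0.997. Between 0.239% and 0.935% of the 10057 genes had an r of at least 0.9 with a given gene of the 8. The genes named were picked as the highest r of 10057 over only 6 libraries. Values this high can come from that selection alone, and no test of them was made.

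Markers of the neighbouring tissues were compared with the 8 genes library by library, since the meshwork adjoins iris, ciliary body, stroma and vessels. The lists were ranked by mean log2 level. Col8a2 replicate 3, the lowest library for the 8 genes, was also the lowest for 6 of 12 marker lists other than corneal endothelium. They were stromal keratocytes, Schlemm canal and vascular endothelium, smooth muscle and pericytes, pigment epithelium and melanocytes, ciliary body epithelium and immune cells. By summed CPM the Schlemm canal and vascular list, most of it Npnt, was instead highest of the Col8a2 group in replicate 3, at 1736 CPM. Its mean log2 level of corneal endothelium markers, 9.30, was the highest of the Col8a2 group. Tcf4+/- replicate 2, the highest library for the 8 genes, was by mean log2 level the highest for 5 of those 12 lists. It was the lowest for 3, corneal epithelium, retina and dividing cells. It was also the highest of the 6 libraries for corneal endothelium markers, at 9.46. All 9 markers of pigment cells were tested, with none at 0, and their summed level was 775 to 1608 CPM in the Tcf4+/- libraries and 396 to 1264 CPM in the Col8a2 libraries. All 10 markers of smooth muscle and pericytes were tested, with none at 0 and a summed level of 366 to 420 CPM in the Tcf4+/- libraries and 266 to 465 CPM in the Col8a2 libraries. Their sum was highest in Col8a2 replicate 2 and their mean log2 level in Tcf4+/- replicate 2. All 10 markers of keratocytes were tested, with none at 0 and a summed level of 14924 to 23279 CPM in the Tcf4+/- libraries and 10440 to 21199 CPM in the Col8a2 libraries. The part of these cells in the levels of the 8 genes was not tested.

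**Figure D4:**
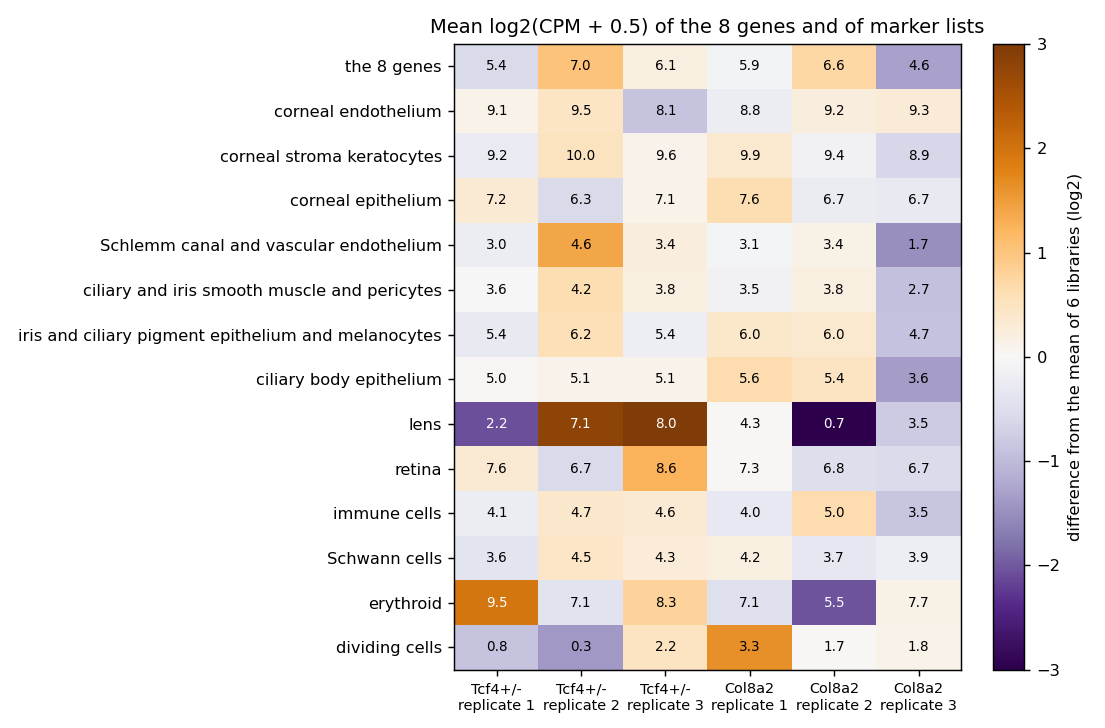
Mean log2(CPM + 0.5) of the 8 genes and of 13 marker lists (numbers) in each library, Tcf4+/- left and Col8a2 right, coloured by the difference from the mean of the 6 libraries. The 8 genes range from 4.6 in Col8a2 replicate 3 to 7.0 in Tcf4+/- replicate 2, and the lens list from 0.7 in Col8a2 replicate 2 to 8.0 in Tcf4+/- replicate 3.

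Other markers of the trabecular meshwork were not called by edgeR, and 1 of them, Pi16, was called by DESeq2. Of 20 further meshwork markers edgeR tested 17 and called 0 in either direction, with 10 fitted higher and 7 fitted lower in Tcf4+/- libraries and a median of 0.27 on the log2 scale. Their mean log2 level was 5.47, 5.89 and 5.62 in the Tcf4+/- libraries and 5.30, 5.56 and 4.70 in the Col8a2 libraries, again lowest in Col8a2 replicate 3 and highest in Tcf4+/- replicate 2. Igfbp2, an IGF-binding protein, averaged 7009 ± 3850 CPM in the Tcf4+/- group and 7673 ± 1073 CPM in the Col8a2 group, and Dcn, the proteoglycan decorin, 6159 ± 2291 CPM and 4397 ± 1306 CPM in the same order (SD, n = 3 each). Both of these genes are also abundant outside the meshwork. Of this list, 2 genes had an unadjusted p under 0.05 and were named after their values were seen. Pi16, a peptidase inhibitor, was at 14.04, 93.3 and 76.5 CPM in the Tcf4+/- libraries and 14.9, 8.08 and 9.50 CPM in the Col8a2 libraries, so Tcf4+/- replicate 1 lay within the Col8a2 range. DESeq2 called Pi16, with an adjusted p of 0.0266, and edgeR did not. Rspo2 is an activator of Wnt signalling. It was at 3.20, 6.397 and 2.97 CPM in the Tcf4+/- libraries and 0, 0.585 and 0.217 CPM in the Col8a2 libraries. The groups did not overlap, as in 4.53% of all genes tested in this direction, and Col8a2 replicate 1 had no count. Of 28 further outflow disease genes edgeR tested 26 and called 0, and DESeq2 called 0, with a median log2 fold change of -0.09. Thbs1, an activator of latent TGF-beta, averaged 742 ± 412 CPM in the Tcf4+/- group and 776 ± 179 CPM in the Col8a2 group, and Svep1, a matrix ligand of the Tie pathway, 452 ± 300 CPM and 522 ± 150 CPM in the same order (SD, n = 3 each).

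Families and pathways of the individual genes were read from further lists, in which edgeR and DESeq2 called 0 genes. The angiopoietin-like relatives of Angptl7 were all fitted lower in the 5 of 6 tested, with a median of -0.94 on the log2 scale. Angptl2 averaged 39.1 ± 22.1 CPM in the Tcf4+/- group and 55.1 ± 35.6 CPM in the Col8a2 group, and Angptl1 30.05 ± 7.58 CPM and 32.9 ± 4.88 CPM in the same order (SD, n = 3 each). Latent TGF-beta binding genes, the relatives of Ltbp2, and microfibril genes together numbered 12, with 7 fitted higher, 5 lower and a median of 0.07 on the log2 scale. In that list Ltbp4, the only gene with an unadjusted p under 0.05, was at 40.2, 123 and 75.9 CPM in the Tcf4+/- libraries and 37.2, 42.1 and 33.8 CPM in the Col8a2 libraries. Ltbp3 averaged 500 ± 311 CPM in the Tcf4+/- group and 598 ± 195 CPM in the Col8a2 group, and Mfap4, a microfibril protein, 394 ± 190 CPM and 258 ± 97.7 CPM in the same order (SD, n = 3 each). Vitamin K and mineralisation genes, the setting of Mgp, had a median log2 fold change of -0.24, and the 10 tested of 12 were all fitted lower. Gas6, also a vitamin K-dependent protein, averaged 368 ± 206 CPM in the Tcf4+/- group and 446 ± 314 CPM in the Col8a2 group, and Vkorc1, which recycles vitamin K, 110 ± 40.9 CPM and 117 ± 40.03 CPM in the same order (SD, n = 3 each).

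Glucocorticoid response genes were included because glucocorticoids raise Myoc and Angptl7 in cultured human meshwork cells. All 14 were tested, and edgeR and DESeq2 called 0, with 7 fitted higher, 7 lower and a median log2 fold change of 0.08. Serpina3n, a protease inhibitor gene named after its values were seen for its unadjusted p under 0.05, was at 29.6, 50.7 and 48.6 CPM in the Tcf4+/- libraries and 211, 480 and 25.6 CPM in the Col8a2 libraries. Col8a2 replicate 3 lay below all Tcf4+/- libraries, so the groups overlapped. Dusp1, a phosphatase gene, averaged 276 ± 148 CPM in the Tcf4+/- group and 221 ± 164 CPM in the Col8a2 group, and Sgk1, a kinase gene, 225 ± 27.9 CPM and 187 ± 55.7 CPM in the same order (SD, n = 3 each). Aryl hydrocarbon receptor genes, through which Cyp1b1 is induced, were tested for 7 of 9, with 2 fitted higher, 5 lower and a median of -0.03 on the log2 scale. Ahrr, the repressor of the receptor, was named for the same reason as Serpina3n. It was at 4.36, 2.67 and 1.32 CPM in the Tcf4+/- libraries and 0.0212, 0.303 and 0 CPM in the Col8a2 libraries. The groups did not overlap at these low levels, as in 4.53% of all genes tested in this direction. Aldh3a1, an aldehyde dehydrogenase abundant in cornea, averaged 4059 ± 1155 CPM in the Tcf4+/- group and 4143 ± 1672 CPM in the Col8a2 group, and Ahr, the receptor itself, 65.1 ± 20.02 CPM and 55.6 ± 10.7 CPM in the same order (SD, n = 3 each). The chitinase family beside Chil1 had 3 genes tested of 6, with a median of 0.17. Chid1 averaged 58.9 ± 21.8 CPM in the Tcf4+/- group and 72.9 ± 15.2 CPM in the Col8a2 group, and Ctbs 9.36 ± 5.78 CPM and 8.31 ± 4.84 CPM in the same order (SD, n = 3 each).

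**Figure D5:**
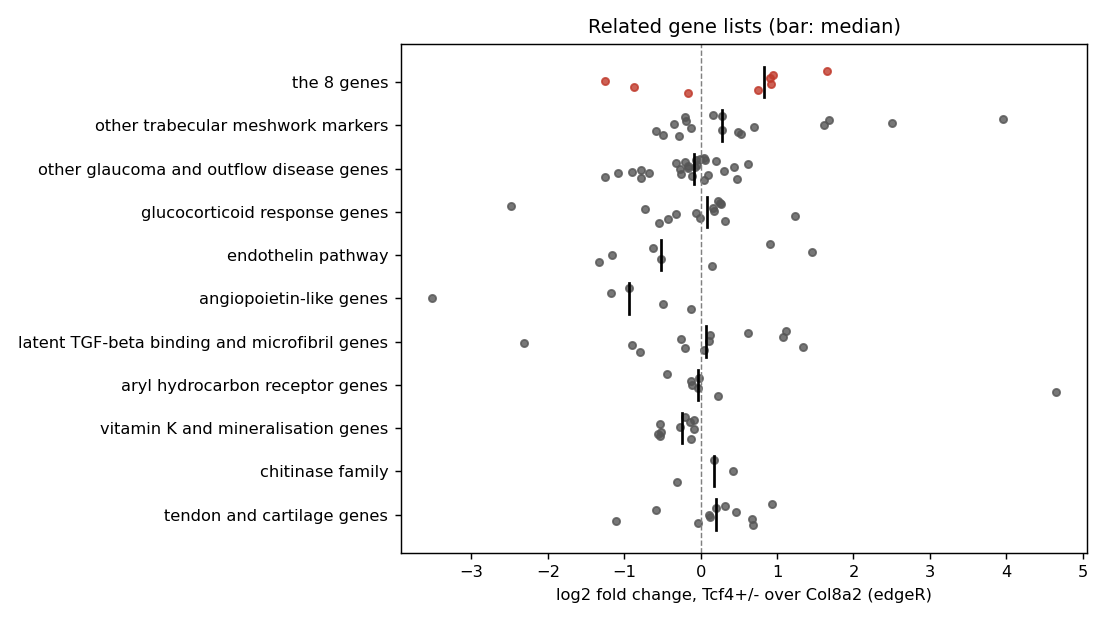
Fitted log2 fold change, Tcf4+/- over Col8a2, of each gene tested in the set of 8 genes (red, top) and in 10 related lists (grey), with a black bar at the median of each. The 8 genes spread from -1.26 to 1.66 around a median of 0.83, which lay between 0.36 and 1.19 with 1 library removed.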

How the data were processed

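RNA-seq libraries of corneal endothelial cells took their genotype and replicate number from their titles. The RNA came from an RNeasy Micro column and became libraries through SMART-Seq HT and Nextera XT, per the labels' protocols. The submitters' processing notes name RSEM, STAR, fastp 0.23.2, FastQC 0.12.1 and DESeq2, with build GRCm39. Which annotation was used is not given in the sources used here. Expected counts in the deposited files are per Ensembl gene and not scaled to depth, with 9.97% of values not whole. TPM and FPKM columns are scaled by the authors to length and depth, per the file headers. FPKM values were not used.

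Symbols came from GENCODE M21 names for 51884 of 57180 identifiers. M21 is on GRCm38, so it served only for names and overlaps, and promoter windows came from RefSeq. Expected counts were rounded, filtered with filterByExpr, scaled by TMM and tested with edgeR 4.0.16 (quasi-likelihood, robust, group as the only term) in R 4.3.3, with a threshold of 0.05. limma 3.58.1 and DESeq2 1.42.0 were alternatives. The smallest exact permutation p for 3 libraries against 3 is 0.1. Depth leaves at least 99 counts for each of the 8 genes in every library, and the spread between libraries limits precision. No 2 libraries had counts alike within sampling noise.

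The 8 genes and the lists were chosen with earlier results of these data known. Genes named beside them were the 2 of highest mean CPM in each list, genes past the threshold, Ednra, Ednrb and Mtor, and the 2 genes of highest r with each of the 8 (5 for their mean), at a mean of at least 10 CPM, without unnamed genes, pseudogenes or ribosomal protein genes. Genes of the related lists with an unadjusted p under 0.05 were named after their values were seen. Some genes that these rules name are not reported here. Correlations used log2(CPM + 0.5), with exact permutation tests in scipy 1.17.1.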

Additional observations from a re-analysis of the deposited data

How the results depend on the processing

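None of the 8 genes was called under any of the 16 alternatives. The count of genes called over the whole table was 0 under 14 of them, 107 with DESeq2, and 0 to 4 over the fits with 1 library removed, with 4 without Col8a2 replicate 3. No gene of the 8 had an adjusted p below 0.464 in any setting. Tnmd, Edn3 and Ltbp2 kept the sign of their log2 fold change under all 16 alternatives. With 1 library removed, Angptl7 ranged from -0.66 to 0.43 (0.43 without Col8a2 replicate 1, 0.10 without Tcf4+/- replicate 1) and Cyp1b1 from -1.37 to 0.42 (0.42 without Col8a2 replicate 2). Without both Tcf4+/- replicates 2 and 3, Myoc, Mgp and Chil1 turned to -0.67, -0.29 and -0.51, and the cause was not tested. That fit leaves 1 library in the group, assumed to vary like the others. Tcf4+/- replicates 2 and 3 also differed in the gap between gene length and effective length, which RSEM sets from fragment length. The median gap was 155 and 150 bases in them, 241 in Tcf4+/- replicate 1 and 211 to 234 in the Col8a2 libraries. Its part in the values was not tested. On the log2(TPM + 1) scale the median of all genes was -0.15, and Edn3 stood at 0.61 (limma, adjusted p = 0.963). The mean r of the 28 pairs stayed between 0.34 and 0.64 under 13 alternatives. Same-numbered libraries had correlations of -0.06, 0.38 and -0.04 in their deviations from the group means, for replicates 1, 2 and 3. Differently numbered libraries ran from -0.26 to 0.27, so the replicate numbers did not pair all the libraries. With replicate number as a block, 0 genes were called, 0 of them among the 8. The spread between 3 libraries, with a median standard error of 0.67 on the log2 scale for the 8 genes, limits what could be called.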
